A study of Mus musculus with 2 samples.

Results

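Open chromatin sites at divergent coding promoters were examined in frontal cortex of female B6CASTF1/J mice, F1 hybrids of B6 and CAST, at 10 days of age. A divergent pair was defined as 2 autosomal protein-coding genes of GENCODE M21 on opposite strands, transcribed away from each other, whose gene starts lay at most 1000 bp apart. A peak belonged to a pair if its centre lay between the starts or within 200 bp of either. By this rule 771 of the 104654 peaks of replicate 1 and 760 of the 81654 peaks of replicate 2 were members. The annotation held 735 such pairs, made of 1450 of the 20807 autosomal coding genes (6.97%), of which 20 genes entered more than 1 pair. The starts of the other 19357 coding genes, each with a window of 200 bp on both sides, served for comparison. The rule used only positions and annotation, not signal or footprints.

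The data come from DNase-seq. Nuclei are digested lightly with the nuclease DNase I, which cuts mostly where DNA is accessible, and the cut positions are read by sequencing. The 2 libraries are named biological replicates of 1 group and carry no treatment. Their labels give 1 donor identifier for both and the mark "3x", which the sources used here do not explain, so the libraries may or may not come from separate animals. Values are therefore given for each library, and the spread between the 2 is the only error. No significance test was made over peaks or genes, since these are not replicates. As a check of the tissue label, 20 of 20 marker genes of cortex and its cells had a peak within 500 bp of a start in replicate 1 and 16 of 20 in replicate 2. Of 10 markers of other organs and brain regions, only En2 had one, in replicate 1. For scale, 58.5% and 55.5% of the other coding gene starts had a peak within 500 bp in replicates 1 and 2, judged at the gene start alone.

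A bidirectional promoter is a stretch of DNA from which genes on both strands are transcribed outward. Such promoters are known to be rich in CpG dinucleotides, poor in TATA boxes and common among genes that every cell uses, such as those for DNA repair, mitochondrial proteins and histones. The short region between the start sites holds binding sites, among them those of ETS factors, NRF1, NFY, SP/KLF factors and YY1, that both genes can share. In DNase-seq a footprint is a short stretch inside an open site where cuts are fewer than around it, usually taken as a place where protein covers the DNA.

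To make this layout visible, 4 strong pairs are shown, each as the bases strictly between its gene starts, from GRCm38 on the plus strand. The left gene of each name is transcribed to the left and the right gene to the right. Capitals mark an ETS, NRF1, YY1 or NFY consensus match with at least 0.5 of its bases under footprints in both libraries. Matches of other motifs, such as SP/KLF, were not marked. Apaf1, the adaptor of the apoptosome, and Ikbip lay at chr10:91082771-91082939 with an NRF1 match. Bckdha, a subunit of the branched-chain ketoacid dehydrogenase, and Exosc5, a subunit of the RNA exosome, lay at chr7:25658982-25659163 with 2 overlapping NRF1 matches. Fbh1, a DNA helicase, and Ankrd16 lay at chr2:11777583-11777875 with 2 footprinted CCAAT boxes, the core of the NFY site. Aamp and Pnkd lay at chr1:74284739-74284929 with 1 footprinted CCAAT box. Further CCAAT stretches in lower case, on either strand, did not reach this footprint cover in both libraries.
Apaf1/Ikbip: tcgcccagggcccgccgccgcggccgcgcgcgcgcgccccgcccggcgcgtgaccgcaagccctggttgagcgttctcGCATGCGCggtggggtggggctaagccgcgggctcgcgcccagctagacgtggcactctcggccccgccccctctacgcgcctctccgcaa
Bckdha/Exosc5: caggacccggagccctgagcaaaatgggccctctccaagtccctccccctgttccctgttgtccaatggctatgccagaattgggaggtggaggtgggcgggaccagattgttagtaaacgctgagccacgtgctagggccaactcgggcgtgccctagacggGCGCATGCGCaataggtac
Fbh1/Ankrd16: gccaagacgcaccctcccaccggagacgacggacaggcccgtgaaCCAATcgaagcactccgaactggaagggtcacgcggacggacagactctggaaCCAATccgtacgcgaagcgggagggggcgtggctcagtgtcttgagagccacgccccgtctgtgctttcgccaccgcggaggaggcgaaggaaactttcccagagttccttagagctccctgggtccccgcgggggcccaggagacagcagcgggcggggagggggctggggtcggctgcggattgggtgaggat
Aamp/Pnkd: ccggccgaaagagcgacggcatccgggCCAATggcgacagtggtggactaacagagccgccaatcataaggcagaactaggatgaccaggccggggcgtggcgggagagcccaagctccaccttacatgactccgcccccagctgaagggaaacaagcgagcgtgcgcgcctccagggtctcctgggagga

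Each of these pairs had a single peak in both libraries. The peak signal, the authors' value for each peak, was 11.1 and 14.2 for Apaf1/Ikbip in replicates 1 and 2, and 8.88 and 9.99 for Bckdha/Exosc5. Fbh1/Ankrd16 had 11.5 and 16.0, and Aamp/Pnkd had 11.9 and 12.4. Footprints covered 49.7% and 55.6% of the bases shown for Apaf1/Ikbip. For Bckdha/Exosc5 the covered shares were 41.2% and 48.4%, for Fbh1/Ankrd16 they were 54.3% and 59.4%, and for Aamp/Pnkd 44.5% and 42.4%. Between 3 and 6 footprints were centred in each interval. No pair of this kind with starts 60 to 300 bp apart had a YY1 match between its starts that was footprinted in both libraries.

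Nearly every divergent coding pair was open. A peak was present at 695 of 735 pairs in replicate 1 (94.6%) and at 688 in replicate 2 (93.6%). Of the other coding gene starts, 50.0% had a peak in replicate 1 and 47.4% in replicate 2. The difference was 44.6 percentage points in replicate 1 and 46.2 in replicate 2, a mean of 45.4 ± 1.15 (SD, n = 2 libraries). The window of a pair spans both starts and is wider than that of a single start. With each start of a pair judged alone, the mean difference was 38.8 points. Both libraries had a peak at 685 pairs (93.2%), against 45.1% of the other starts. In addition, 10 pairs were open only in replicate 1, 3 only in replicate 2, and 37 in neither.

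The pairs also differed from other coding starts in base composition, and this moved with openness. The CpG observed/expected ratio was taken in 500 bp centred on the midpoint of a pair, or on the start for other coding starts. For pairs with starts more than 500 bp apart, this window held only DNA between the starts. The ratio had a median of 0.837 at pairs and 0.557 at other starts, and the median GC content was 62.4% and 56.8%. A ratio of at least 0.6 was found at 86.9% of pairs and 47.2% of other starts. Among starts with that ratio, 98.4% and 98.3% of 639 pairs were open in replicates 1 and 2, against 84.5% and 82.3% of 9134 other starts, so the difference shrank to a mean of 15.0 points. Below that ratio, 68.8% and 62.5% of 96 pairs were open, against 19.2% and 16.3% of 10223 other starts. Pairs were thus more often open than other starts on both sides of this threshold of the ratio and in both libraries. The 68 pairs 500 to 1000 bp apart had a median ratio of 0.543. The pairs below the threshold therefore include wide pairs whose ratio does not describe the sequence at their starts, which limits that comparison. How far CpG content and divergent layout each account for the difference was not tested.

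A divergent partner need not be coding. Among the other coding starts, 674 had the start of a long noncoding RNA gene (lncRNA) within 1000 bp upstream on the opposite strand. Of these, 78.0% were open in replicate 1 and 76.7% in replicate 2, against 49.0% and 46.4% of the remaining coding starts. The window of a coding pair spans both starts, whereas these starts were judged alone. With each start of a pair judged alone, 87.7% and 87.2% were open, so starts with a divergent lncRNA still lay between. The remaining starts include genes whose divergent coding partner overlaps head to head or starts more than 1000 bp away. The same order held for peak signal, with medians of 4.26 and 4.76 at starts with a divergent lncRNA and 2.90 and 3.47 at the remaining starts.

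Peaks at divergent pairs were stronger than those at other coding starts. Their median signal was 4.92 in replicate 1 and 5.51 in replicate 2, against 2.97 and 3.55 at other coding starts and 0.604 and 0.880 over all peaks. The log2 ratio of the medians was 0.73 and 0.63. Quartiles ran from 3.15 to 6.91 and from 3.61 to 7.66 at pairs, and from 1.27 to 5.08 and from 1.65 to 5.91 at other coding starts, so the 2 distributions overlapped widely. Of the pair peaks, 81.2% and 73.6% were among the strongest 10% of all peaks of their library, against 55.3% and 47.6% of peaks at other coding starts. With the CpG ratio at 0.6 or more the medians were 5.11 against 3.60 in replicate 1 and 5.77 against 4.14 in replicate 2. Below it they were 2.69 against 0.958 and 3.24 against 1.32, with the limit given above for widely spaced pairs.

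**Figure D1:**
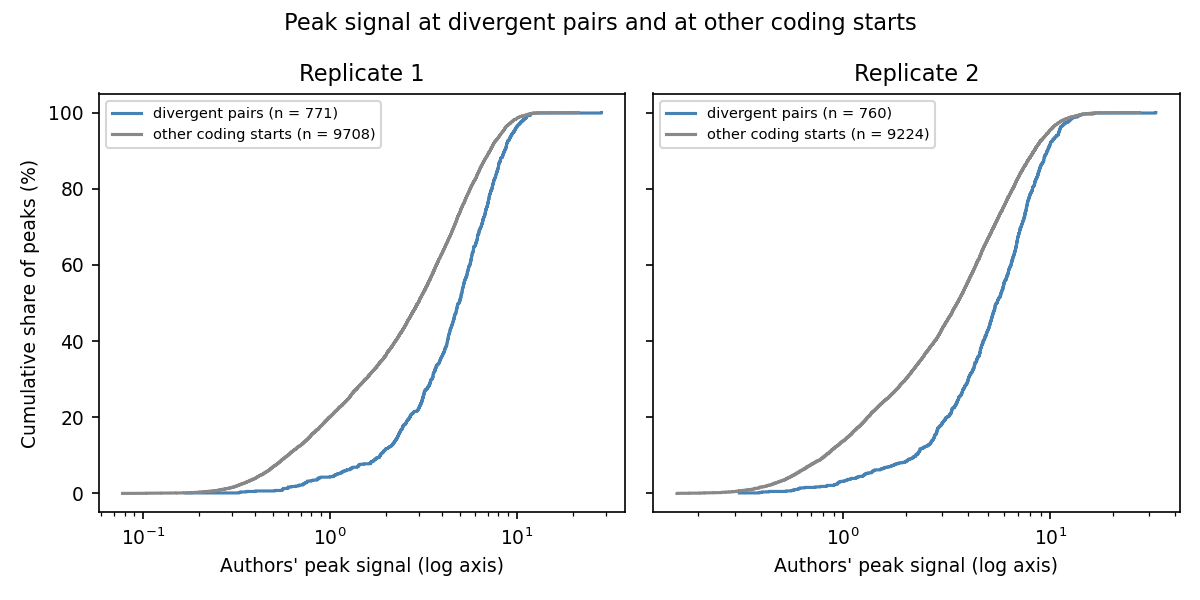
Cumulative share of peaks (%) by the authors' peak signal (log axis) for peaks at divergent coding pairs (blue) and at other coding starts (grey), with 1 panel for each library. The blue curve lies to the right through most of the range, with medians of 4.92 and 5.51 against 2.97 and 3.55, and the curves meet near their upper ends.

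The libraries gave nearly the same picture pair by pair. Of the pair peaks, 97.4% in replicate 1 and 99.2% in replicate 2 overlapped a peak of the other library, against 92.6% and 97.8% at other coding starts. Over the 685 pairs open in both, the log2 signal of the strongest peak, replicate 1 minus replicate 2, was -0.16 at the median (SD 0.19 over pairs). At the 8739 other starts open in both it was -0.17 (SD 0.23). Pearson's r of log2 signal between libraries was 0.972 across pairs, which share genome, tissue and annotation and are not independent. The scaling of the signal is not stated, so the offset between libraries was not interpreted.

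**Figure D2:**
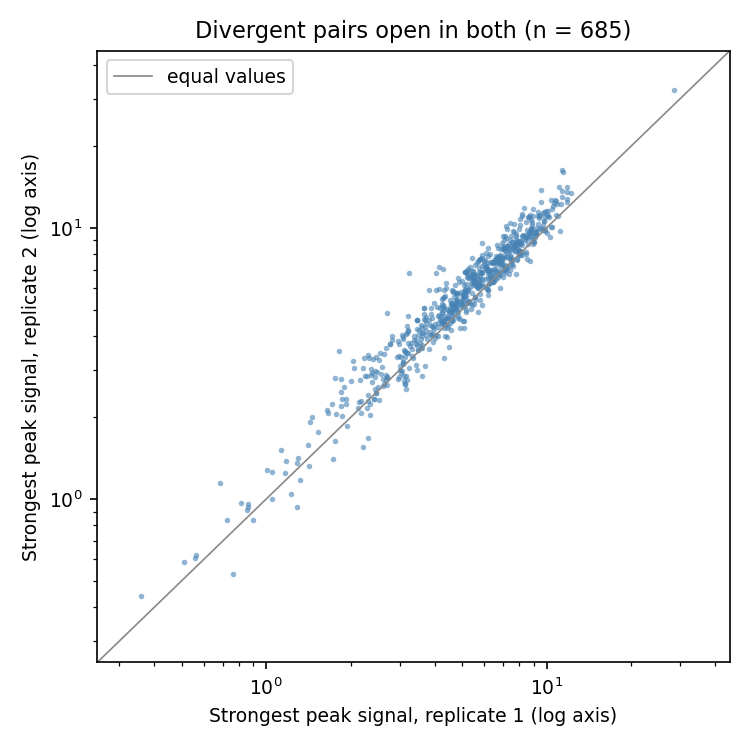
Signal of the strongest peak of each divergent pair in replicate 1 (x, log axis) and replicate 2 (y, log axis) for the 685 pairs open in both, with a line at equal values. Points follow the line with most of them above it, and the single point at the upper right is Hjurp/Trpm8 (28.5 and 32.2).

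The number and place of open sites followed the distance between the starts. The median distance was 128 bp, with quartiles of 66 and 240 bp, and 603 pairs (82.0%) were at most 300 bp apart. Most open pairs had 1 peak, 601 in each library. A further 92 pairs in replicate 1 and 83 in replicate 2 had 2 peaks, and 2 and 4 had 3, and 72 pairs had 2 or more in both libraries. At least 2 peaks were present at 1.69% and 1.03% of the open pairs with starts under 100 bp apart. The share was 5.88% and 4.84% at 100 to 200 bp, 16.5% and 22.8% at 200 to 300 bp, and 45.2% and 39.3% at 300 to 500 bp. At 500 to 1000 bp it was 59.3% and 52.6%. The order was the same in both libraries. Since the window grows with the distance, wider pairs also had more room for a second peak.

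**Figure D3:**
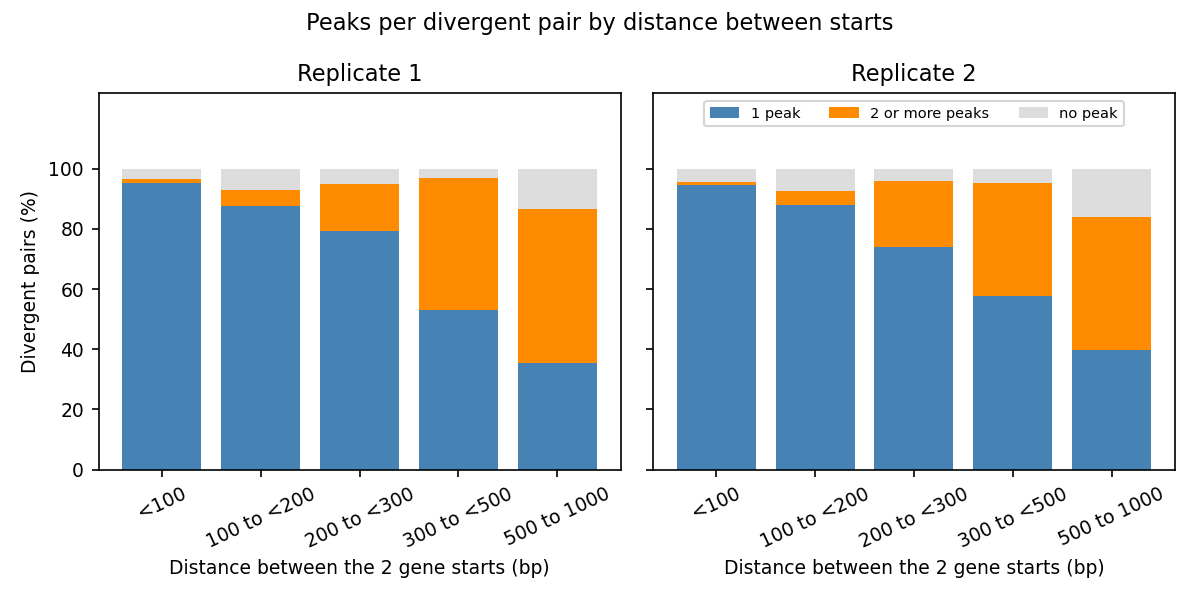
Share of divergent pairs (%) with no peak, 1 peak, or 2 or more peaks, by distance between the gene starts (bp), for each library, over 306, 201, 96, 64 and 68 pairs from the narrowest to the widest class. The orange part grows from 5 of 306 pairs to 35 of 68 in replicate 1 and from 3 to 30 in replicate 2, while the grey part is largest in the widest class.

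In pairs with 2 peaks the sites sat apart, mostly with 1 nearer to each gene start. Their centres were a median of 370 bp apart in replicate 1 and 380 bp in replicate 2, and in 82 of 92 and 75 of 83 pairs 1 peak was nearer to each start. The window is symmetric about the midpoint, so 2 distant centres within it tend to fall on different sides. This count was thus partly set by the rule. The stronger peak had a median of 1.51 and 1.61 times the signal of the weaker. In replicate 1 it lay on the side of the minus-strand gene in 51 of 92 pairs, and in replicate 2 in 42 of 83.

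Coverage around the pair midpoint showed the same change from 1 site to a site at each end. For starts under 100 bp apart, up to 92.5% and 89.9% of pairs were covered by a peak at a single position, 40 and 30 bp to the left of the midpoint. For starts 500 to 1000 bp apart, coverage was highest 310 bp to the left of the midpoint, at 52.9% and 51.5%, and fell to 17.6% and 16.2% at the midpoint itself. Peaks covered 94.8% and 92.3% of the bases between starts under 100 bp apart, and 43.3% and 42.5% of those between the most distant starts. Across all member peaks, 64.5% and 62.9% had their centre between the starts. The strongest peak of a pair lay a median of 36.5 and 39.5 bp from the midpoint.

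**Figure D4:**
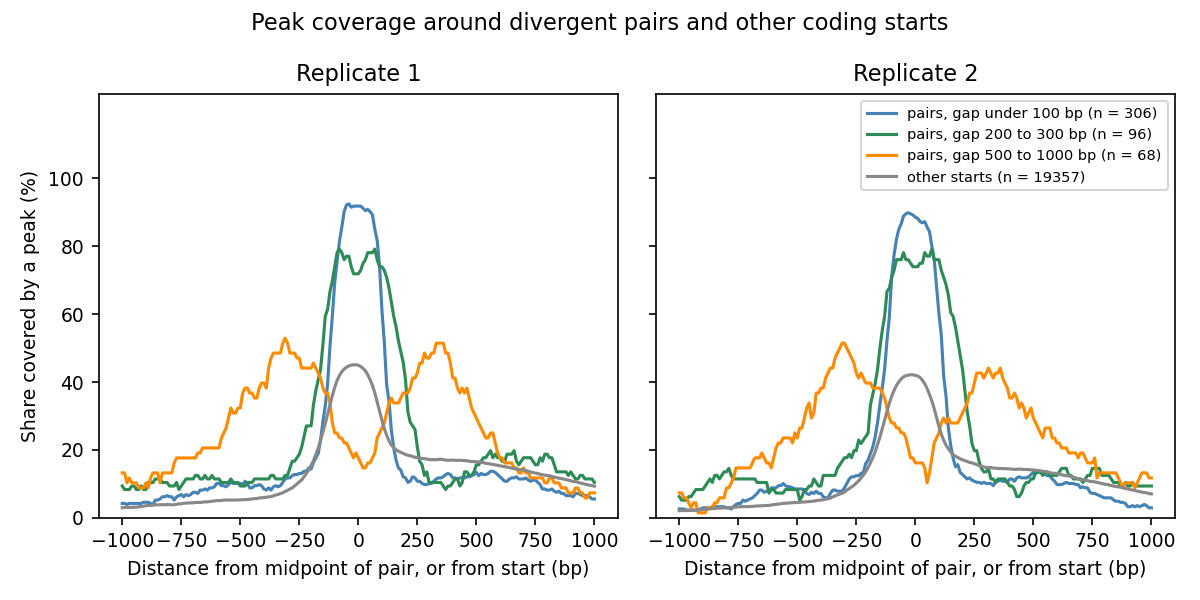
Share of pairs or starts (%) covered by a peak at each distance (bp) from the midpoint of the pair, or from the gene start for other coding starts with transcription to the right, for each library. Narrow pairs (blue) give 1 summit near the midpoint (up to 92.5% and 89.9%), the widest pairs (orange) give a summit on each side with a dip between, and other starts (grey) reach 45.1% and 42.1%.

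Signal was lowest at the ends of the distance range. The median strongest signal was 4.80 and 5.31 for starts under 100 bp apart and rose through 5.69 and 6.57, and 6.04 and 6.78, to 6.17 and 7.10 at 300 to 500 bp. At 500 to 1000 bp it was 4.60 and 5.15. The quartiles of neighbouring classes overlapped in both libraries. The widest class was also the least often open, at 86.8% and 83.8%. Its median CpG ratio was 0.543, against 0.835 to 0.856 in the other classes. In this class the 500 bp window around the midpoint lay between the starts, so the ratio does not describe the sequence at the starts. At the limit of the rule, of 15 pairs 801 to 1000 bp apart, 14 and 12 were open, with median signals of 4.44 and 5.64, and of 19 pairs 1001 to 1200 bp apart, 17 were open in each library, with 3.70 and 3.88. Just inside the edge of the window, at 100 to 200 bp beyond a start, lay 54 and 66 peaks with median signals of 2.29 and 3.41. Just outside it, at 200 to 300 bp, lay 74 and 53 with 2.68 and 2.93.

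Peak width hardly set the pairs apart. The mean width was 268 bp (SD 100.4 over peaks) in replicate 1 and 269 bp (SD 88.5) in replicate 2, against 274 bp (SD 122) and 272 bp (SD 117) at other coding starts. The mean difference of -4.47 ± 2.10 bp (SD, n = 2 libraries) was small beside the spread over peaks. With the authors' shorter peak list it was -1.50 bp in replicate 1 and 5.46 bp in replicate 2, and in the upper 40% of coding-start peaks by signal it was 10.3 and 10.4 bp.

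Almost all pair peaks held a footprint. At least 1 was present in 763 of 771 peaks in replicate 1 (99.0%) and in 737 of 760 in replicate 2 (97.0%), against 95.9% and 93.1% of peaks at other coding starts. Pair peaks held a mean of 5.13 footprints in replicate 1 (SD 2.33 over peaks) and 4.91 in replicate 2 (SD 2.25), against 4.64 and 4.16. Peaks at coding starts with a divergent lncRNA held 5.41 and 4.79, above the pairs in replicate 1 and below them in replicate 2. At CpG ratios of at least 0.6 the mean difference between pairs and other coding starts was 0.358 footprints per peak, against 0.619 over all. Per 100 bp of peak the values were 1.91 and 1.82 against 1.70 and 1.53. Within pair peaks, footprints were denser between the starts, at 2.06 and 2.00 per 100 bp, than in the parts that lay over the genes, at 1.81 and 1.70.

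The number of footprints moved with peak signal. When all coding-start peaks of a library were divided into 5 equal classes by signal, the mean per pair peak rose from 2.25 in the weakest class to 5.62 in the strongest in replicate 1 and from 1.48 to 5.59 in replicate 2. At other coding starts it rose from 2.65 to 5.36 and from 1.76 to 5.33. Much of the rise lay between the 2 weakest classes, since the next class after the weakest had 4.60 and 3.77 at pairs and 5.11 and 4.21 at other starts. The weakest class held only 36 and 42 pair peaks. In the 2 weakest classes the pairs had fewer footprints than the other starts in both libraries, and in the 3 strongest they had slightly more. In the upper 40% of peaks by signal the means were 5.38 against 5.21 in replicate 1 and 5.45 against 5.17 in replicate 2. The mean difference was 0.226 footprints per peak there.

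Motifs were then counted as exact matches on either strand within 100 bp of the peak centre. The ETS consensus CCGGAAGT, bound by the GABPA and ELK families among others, was present in 10.9% and 10.8% of pair peaks, against 7.03% and 7.21% of peaks at other coding starts. The YY1 consensus AAGATGGC was present in 6.61% and 5.92% against 3.53% and 3.77%. The NFY core CCAAT was present in 38.3% and 38.2% against 30.6% and 30.9%, and the NRF1 consensus GCGCATGC in 6.61% and 6.45% against 4.95% and 5.12%. All 4 were thus more frequent at pairs in both libraries, which hold largely the same sites and so do not give independent counts.

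The remaining motifs did not share 1 direction. The SP/KLF consensus GGGCGGG was in 43.8% and 42.2% of pair peaks against 44.1% and 44.2%. The E-box CACGTG was in 9.08% and 8.29% against 8.15% and 8.37%, and the TATA box TATAAA in 2.20% and 2.63% against 2.65% and 2.80%. The CTCF core CAGGGGGCG, part of the site of the insulator protein CTCF, was in 16 pair peaks in each library (2.08% and 2.11%) against 3.42% and 3.47%. The cyclic AMP response element TGACGTCA was in 4.15% and 3.68% against 3.49% in each library. The ZNF143 consensus ACTACAATT was in 7 and 6 pair peaks, 0.908% and 0.789%, against 0.494% and 0.510%. The NFY, SP/KLF and other matches can overlap each other, and each motif was counted by itself.

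**Figure D5:**
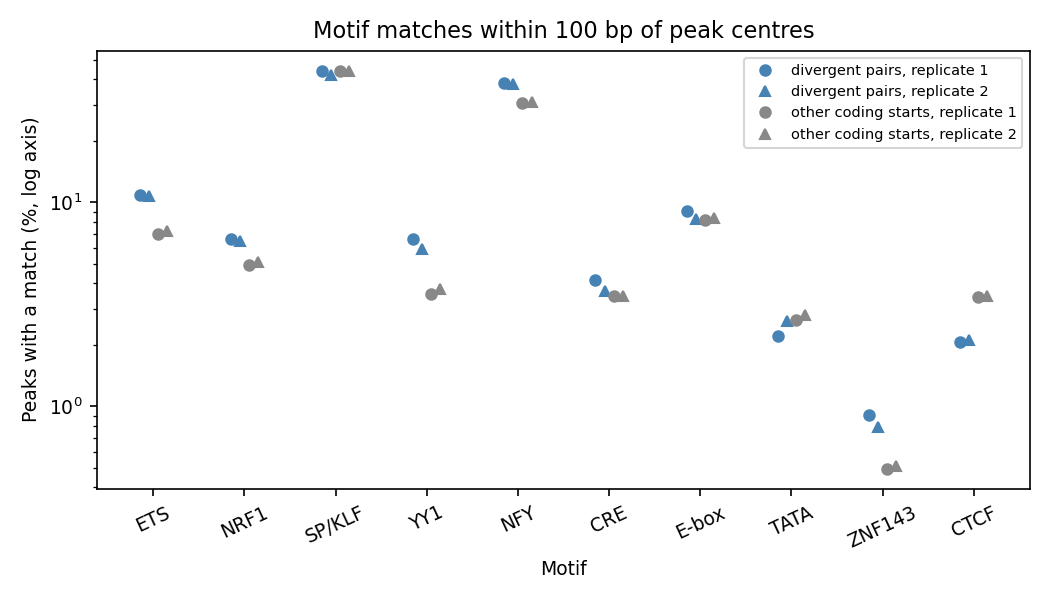
Share of peaks (%, log axis) with an exact motif match within 100 bp of the centre, for divergent pairs (blue) and other coding starts (grey), with circles for replicate 1 and triangles for replicate 2. The largest relative gaps are at YY1 (6.61% against 3.53%), ZNF143 and ETS in favour of pairs and at CTCF (2.08% against 3.42%) in favour of other starts.

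Motif content also moved with peak strength. Among the upper 40% of coding-start peaks by signal, 502 and 484 of them at pairs, ETS matches were in 11.0% and 10.7% of pair peaks against 10.3% and 9.31% at other starts. CCAAT matches were in 46.0% and 45.7% against 44.2% and 44.1%. NRF1 matches were in 8.57% and 8.68% against 9.04% and 8.97%, the reverse of the order over all peaks. YY1 matches remained more frequent at pairs, at 7.77% and 7.02% against 5.47% and 5.28%, and CTCF matches less frequent, at 1.79% and 1.45% against 4.19% and 4.15%. These last shares rest on 9 and 7 pair peaks.

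Footprints covered the matches of some motifs far more often than others. The response element was footprinted at 33 of 33 matches in pair peaks of replicate 1 and 27 of 29 in replicate 2, against 89.4% and 85.9% of matches at other starts. NRF1 matches were footprinted in 87.5% and 84.0% of cases, against 79.2% and 82.8% at other starts. SP/KLF matches were footprinted in 75.9% and 74.6% of cases at pairs, against 65.1% and 59.5%. In the upper 40% of coding-start peaks by signal, these SP/KLF shares were closer, at 81.5% against 80.1% in replicate 1 and 84.8% against 79.2% in replicate 2. For NRF1 they were 86.7% against 85.9% and 86.3% against 88.2% there. ETS matches reached 45.7% and 34.1% at pairs against 42.8% and 38.4%, and YY1 matches 47.2% and 31.2% against 37.2% and 37.8%, so for both the libraries differed in direction. CCAAT matches reached 30.0% and 24.1% against 26.6% and 23.6%. A footprinted ETS match was present in 5.06% and 4.08% of pair peaks against 3.22% and 2.96% at other starts, a mean difference of 1.48 ± 0.51 points (SD, n = 2 libraries). In the upper 40% of peaks this difference was -0.21 points.

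Some gene classes had many members in divergent pairs. Set against 6.97% of all coding genes, 27 of 67 histone genes (40.3%) were in a pair, as were 27 of 95 DNA replication and repair genes (28.4%), 12 of 44 complex I genes (27.3%) and 18 of 78 mitochondrial ribosomal genes (23.1%). Proteasome genes had 7 of 49 (14.3%) in pairs, Mediator genes 5 of 28 (17.9%), aminoacyl-tRNA synthetases 5 of 34 (14.7%) and cytosolic ribosomal genes 9 of 87 (10.3%). Solute carriers had 17 of 358 (4.75%), zinc finger genes 20 of 415 (4.82%), synaptic and neuronal genes 2 of 52 (3.85%) and olfactory receptors 0 of 1128. These shares describe the annotation and not the libraries.

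Open counts of the classes are read against the share of all pairs that were open, 94.6% in replicate 1 and 93.6% in replicate 2, and most lay near it. Of 28 pairs with a repair gene, 28 were open in replicate 1 and 27 in replicate 2, with median strongest signals over open pairs of 6.55 and 7.44, against 5.23 and 5.99 over all open pairs. The highest was Atm/Npat, where the DNA damage kinase Atm faces Npat, a regulator of histone gene transcription, with 9.91 and 10.95. The lowest was Pinlyp/Xrcc1, with Xrcc1 a scaffold of single-strand break repair, at 0.557 in replicate 1 and no peak in replicate 2. Complex I genes, which encode subunits and assembly factors of the first enzyme of the respiratory chain, were in 12 pairs, of which 11 were open in each library with medians of 6.39 and 7.47. Tepsin/Ndufaf8 led them with 9.57 and 13.8, and Ndufa5/Asb15 had no peak. All 18 pairs with a mitochondrial ribosomal gene were open in both libraries, near the 93.2% of all pairs, with medians of 5.41 and 6.58, from Mrpl49/Fau (9.69 and 9.81) to Zfp661/Mrps5 (1.82 and 3.51).

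Histone pairs had lower signals, set against the medians of 5.23 and 5.99 over all open pairs. Of 14 pairs, 11 were open in each library with medians of 2.29 and 2.73, and the strongest, Hist1h2bf/Hist1h2ad, had 3.89 and 4.65. Histone genes are near-identical copies of each other, and the sources used here do not say how the authors placed reads that fit more than 1 copy, so these values are uncertain. Pairs with a cytosolic ribosomal gene were open in 8 of 9 cases, led by Med22/Rpl7a with 10.7 and 12.7. Set against the open share of all pairs (94.6% and 93.6%), nothing particular to a class is read from these counts or the following ones. All 7 pairs with a proteasome gene were open, with medians of 4.30 and 4.41, from Ftsj3/Psmc5 (7.14 and 9.18) to Cep76/Psmg2 (2.06 and 3.03). All 5 Mediator pairs were open, and so were all 5 synthetase pairs, from S100pbp/Yars (6.49 and 6.71) to Orc3/Rars2 (3.59 and 4.14). Of 18 pairs with a zinc finger gene 15 were open, led by Zfp654/Cggbp1 (10.9 and 12.3), and of 16 with a solute carrier 15, led by Slc39a7/Rxrb (8.51 and 9.83).

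The list of synaptic genes had 2 members in pairs, both open, as were 94.6% and 93.6% of all pairs. Dlg2, a scaffold protein of the postsynaptic density, shared its start region with Tmem126b, at signals of 8.42 and 10.5. Nlgn2, an adhesion protein of inhibitory synapses, lay 730 bp from Tmem256 with 2 peaks in each library, the stronger at 6.49 and 7.59. Its window held 19 footprints in replicate 1 and 20 in replicate 2, among the most of any pair. Such counts cover the whole window, which is wider where the starts are further apart. Asphd1/Sez6l2, 981 bp apart, had 20 and 14 footprints and 3 peaks in both libraries, with a strongest signal of only 2.30 and 3.39.

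Of 16 divergent pairs well known from textbooks and reviews, 10 met the rule and 6 did not, because the annotated starts of those 6 overlapped head to head. Prkdc, the DNA-dependent protein kinase, and Mcm4, a subunit of the replicative helicase, had 9.44 and 11.1. Pdcd10 and Serpini1, which encodes the brain protein neuroserpin, had 8.76 and 11.2, and Chek2/Hscb had 7.39 and 9.01. Sars2/Mrps12, both genes of mitochondrial translation, had 5.24 and 6.70, Gart/Son 4.48 and 4.95, and Brca1/Nbr1 4.11 and 4.74. Trp53, the p53 tumour suppressor, and Wrap53 had 3.18 and 2.75. Col4a3/Col4a4, 2 collagen chains of the basement membrane of kidney and other tissues, had 0.401 in replicate 1 and no peak in replicate 2. Of the 10, 9 were thus open in both libraries, near the 93.2% of all pairs, so nothing particular to textbook pairs is read from this.

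Of the 10 strongest pairs, 9 had starts under 300 bp apart, and each had 1 peak in both libraries. Of all pairs, 82.0% were at most 300 bp apart, and 601 of 695 and 601 of 688 open pairs had 1 peak. Neither trait is therefore read as particular to the strongest pairs. Hjurp/Trpm8 stood far above the rest at 28.5 and 32.2, with starts 28 bp apart. Cdc27, a subunit of the anaphase-promoting complex, and Myl4, a muscle myosin light chain, followed with 11.3 and 16.3, then Fbh1/Ankrd16. Fam53a/Gm9903 had 11.8 and 14.1, and Deaf1/Tmem80 12.2 and 13.5. Nfya, which encodes a subunit of the CCAAT-binding factor NFY, and Oard1 had 11.8 and 13.6. Pdhx, a component of the pyruvate dehydrogenase complex, and Apip, an enzyme of methionine salvage, had 11.3 and 13.7. Rer1/Morn1 had 11.3 and 13.0, and Apaf1/Ikbip, shown above, was also among the 10.

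At the other end, the weakest pair open in both libraries was that of the deacetylase gene Sirt1 and the co-chaperone gene Dnajc12, 739 bp apart, with 0.359 and 0.440. Kctd19/Lrrc36 had 0.510 and 0.586, and Gm9922/Lmo7 0.557 and 0.609. Il17rb, a cytokine receptor gene, and Chdh, encoding choline dehydrogenase, had 0.563 and 0.620, and Rad51c/Tex14 had 0.760 and 0.530. All these values but that of Rad51c/Tex14 in replicate 1 lay below the medians of all peaks, 0.604 and 0.880.

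Pairs open in 1 library were few, and some owed this to where the peak centre fell. The 3 pairs open only in replicate 2 were Rnf121/Xndc1 and Rnf121/Xntrpc, which share 1 peak of 5.40, and Obsl1/Inha with 1.09. In all 3 the peak overlapped a replicate 1 peak whose centre lay outside the window. Of the 10 pairs open only in replicate 1, this held in the reverse direction for Sirt6/Ankrd24 (3.72) and Cep44/Fbxo8 (1.98). The strongest without any overlapping peak in the other library was Dcun1d2/Tmco3, with 4.08 in replicate 1, and its window held 7 footprints in replicate 1 and 4 in replicate 2.

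The 37 pairs with no peak in either library were mainly poor in CpG around the midpoint, 29 of them with a ratio under 0.6. Among them were Klc3/Ckm, with the muscle creatine kinase gene, Duox2/Duoxa2, which makes hydrogen peroxide in the thyroid, Pecam1/Milr1, with an endothelial adhesion gene, Smyd1/Cd8b1, with genes of muscle and T cells, Bhmt2/Dmgdh, with genes of liver methyl metabolism, and the interferon-induced pair Ifit1bl2/Ifit1. These examples are not a full list, and no tissue pattern is read from them. Of the 37, 3 were histone pairs and 8 held a predicted gene, against 14 and 74 of all 735 pairs. Aspa/Gm49340 and Aspa/Spata22 share both starts and count as 2 pairs. No base of 31 of the 37 windows was listed in either of the authors' cut-rate tables, which list bases with a false discovery rate for each. Of all pairs without a peak, 9 of 40 in replicate 1 and 9 of 47 in replicate 2 had a listed base (22.5% and 19.1%), against 17.2% and 15.7% of other coding starts without a peak.

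Closed pairs were not always closed genes. In 17 of the 37, a member gene had a peak in both libraries within 200 bp of another annotated start. These included Rnf151/Rps2, with a ribosomal protein gene, Grik5/Zfp574, with a kainate receptor subunit gene, Slc27a5/Trim28, Surf4/Stkld1, Ndufa5/Asb15, Dgcr2/Tssk2 and Ccnt1/4930415O20Rik, named after their values were seen. In the remaining 20 pairs, no member gene had such a peak in both libraries. The same share was not counted for other coding genes without a peak at their gene start, so nothing particular to pairs is read from it. The gene start of the annotation is the outermost of all annotated transcripts, so for these 17 pairs the open site lay at another start of the gene.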

How the data were processed

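DNase-seq of 2 libraries was used. Per the labels and the file headers, the authors deposited for each library 2 lists of peaks, 1 of footprints and a cut-rate table that lists bases with their false discovery rate (a p-value type of measure), in mm10 (GRCm38) coordinates. The longer peak list was used. The peak signal is the authors' deposited value for each peak. The sources used here give neither its scaling nor the aligner or callers. The p-value type of measure deposited with footprints was 0.01 in all rows and could not rank them. Read totals were not used, so the depth is unknown, and precision was judged from the 2 libraries alone.

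Peaks, windows, footprints (assigned by their centre) and exact motif matches were counted in Python 3.11.15 with numpy 2.4.6, pandas 2.3.3 and pysam 0.24.0, using GENCODE M21 and GRCm38.p6. Interval code was tested on simulated data with 0 differences from a direct search over 800 intervals. Each quantity was computed in each library, and its mean ± SD was taken over the 2. Pairs were named by rule: the 10 highest and 5 lowest in strongest signal, the 3 strongest open in 1 library only, the 5 with most footprints, the 3 with most peaks, the textbook pairs and the highest and lowest of each gene class; others are said to be named after their values were seen or are among the 37 closed pairs. For printed sequences, up to 2 pairs with a distance of 60 to 300 bp were taken per motif, and 1 overlapped by another coding gene was left out. The members, gene lists and motifs were chosen with earlier results of these data known. Some pairs and markers that these rules select are not reported here. Alternatives comprised other peak lists, windows, distances, CpG and signal limits.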

Additional observations from a re-analysis of the deposited data

How the results depend on the processing

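Of 36 alternatives to 5 results, not counting those that leave out 1 library, 15 moved the value by less than the SD over the 2 libraries, which is a narrow measure with so few libraries, and 3 changed its sign. The difference in open share (45.4 points) was 47.5 with the shorter peak list, 38.4 with a window of 500 bp, 15.0 at CpG ratios of at least 0.6, 43.2 without predicted genes, 38.8 with each start judged alone and 49.2 with peaks at or above the median signal. The log2 ratio of median signal (0.68) was 0.58 with the shorter list, 0.96 with the 500 bp window, 0.49 at the higher CpG ratios and 0.76 with the strongest peak per pair or start. The width difference (-4.47 bp) was 1.98 with the shorter list, -6.88 with starts at most 500 bp apart, -12.0 with the 500 bp window, -11.0 at the higher CpG ratios and 10.4 in the upper 40% of peaks by signal. Footprints per peak (0.619 more) differed by 0.358 at the higher CpG ratios, by 0.226 in the upper 40% and by 0.258 per 100 bp. The share with a footprinted ETS match (1.48 points more) differed by 2.02 with starts at most 500 bp apart, by 0.92 with the whole match under footprints and by -0.21 in the upper 40%. The cause was not tested, and the upper 40% was chosen after seeing the data. With 1 library left out, which gives the other library's own value, the results ranged from 44.6 to 46.2 points, from 0.63 to 0.73, from -5.96 to -2.98 bp, from 0.483 to 0.755 and from 1.12 to 1.83 points. No paired analysis was possible because both libraries belong to 1 group. Depth was not known, so an absent peak cannot be told apart from too few reads.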

Other observations

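Divergent coding genes whose annotated starts overlap head to head fell outside the rule and are given here as values. Of 126 such pairs with an overlap of at most 200 bp, 120 were open in replicate 1 and 120 in replicate 2 (95.2% each). Their peaks had median signals of 4.10 and 4.56, mean widths of 282 and 276 bp and 5.18 and 5.05 footprints per peak.

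The 6 textbook pairs with overlapping starts were open in both libraries. Of the pairs with an overlap of at most 200 bp, 95.2% were open in each library. Some of the 6 overlap by more than that, and nothing particular to textbook pairs is read from the count. Hspd1/Hspe1, the genes of the mitochondrial chaperonin and its partner, overlap by 111 bp and had signals of 8.63 and 8.98. Paics/Ppat, both of purine synthesis, overlap by 271 bp and had 7.14 and 7.12. Tap1/Psmb9, of antigen processing, had 5.42 and 5.58, Surf1/Surf2 had 2.66 and 2.86, and the collagen pair Col4a1/Col4a2 had 2.03 and 2.31.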
